A study of Mus musculus with 4 samples.

Results

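Collagen genes other than the 4 classical cartilage genes were followed across digit tip regenerates of 4 mouse genotypes. The group was taken by gene symbol: every gene named Col, a number, a and a number, without Col2a1, Col9a1, Col10a1 and Col11a1. This gave 40 genes of the 45706 in the table, of which 37 reached 1 CPM (counts scaled to a common library size) in at least 1 library. By structure they divide into 9 fibrillar collagens, 9 of basement membranes and their anchors, 8 fibril-associated (FACIT) collagens, 4 transmembrane collagens, 6 beaded filament (type VI) collagens, 2 hexagonal network (type VIII) collagens and 2 others. Col9a2, Col9a3 and Col11a2 are cartilage collagens too and remain in the group because the symbol rule kept them. The symbol rule uses no measured value, but the group was proposed with earlier results of these data known.

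Gene counts were measured by poly-A RNA sequencing of whole digit tips 14 days after amputation, with 1 library each for conditional knockout (cKO) of Sp6, of Sp8 and of both, and for wildtype. Per the labels' protocols the cKO mice received tamoxifen at 75 mg/kg daily on 5 days and rested for 5 days before amputation, and each tip was cut free of tissue on the body side of its last joint before RNA was taken. The comparison bears on what the zinc-finger transcription factors Sp6 and Sp8, both made in epidermis, contribute to the regenerating tip. Not given in the sources used here are the Cre driver, any tamoxifen given to wildtype mice, strain, sex, age, amputation plane, and how many animals or digits went into a library. By their labels the 3 cKO libraries belong to batch 1 and wildtype to batch 3, so knockout and batch cannot be told apart where wildtype is the comparator, whereas the cKO libraries share their batch.

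Collagens are secreted or membrane proteins whose chains wind together into a helix. Fibrillar collagens form the tensile fibres of dermis, bone and tendon, FACIT collagens sit on those fibres, type IV forms the sheet of basement membranes, and type VI forms fine filaments around cells. In skin, type VII forms the anchoring fibrils that tie the epidermal basement membrane to the dermis, and type XVII is a hemidesmosome component of basal keratinocytes. Such genes are read from many cell types in a whole digit tip, and in bulk RNA fewer cells of a type and less RNA per cell cannot be told apart.

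Library totals lay between 12588511 and 21834883 counts, and a level of 3 counts equalled 0.138 to 0.238 CPM. The targeted genes were read first. Sp6 stood at 29.2 CPM in Sp6 cKO, 95.6 CPM in Sp8 cKO, 57.8 CPM in Sp6+Sp8 cKO and 97.7 CPM in wildtype. Sp8 stood at 66.1, 16.8 and 13.4 CPM in the same cKO order and at 63.9 CPM in wildtype. Each targeted gene was lower than in wildtype in every library whose label names its deletion, and Sp6 stood 1.98-fold higher in the Sp6+Sp8 than in the Sp6 cKO library. The labels do not say whether counted reads can fall in the deleted part of each gene. There are no replicates, so each comparison describes a pair of libraries, no p-value is given, and all intervals are exact 95% intervals of counting error only.

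The stretches upstream of 4 of these genes, Col7a1, Col17a1, Col5a1 and Col3a1, are printed because those genes carry the main values below and because the Sp family of transcription factors is known for binding GC boxes. Each runs 5′ to 3′ on the gene's strand from RefSeq's GRCm38.p6 promoter table and ends at the base before the annotated start. Capitals mark the GC box GGGCGG on either strand, so CCGCCC is capitalised too. Col7a1 lies at chr9:108953336-108953585 on the plus strand, Col17a1 at chr19:47692095-47692292 on the minus strand, Col5a1 at chr2:27886175-27886424 on the plus strand and Col3a1 at chr1:45311288-45311537 on the plus strand.
Col7a1: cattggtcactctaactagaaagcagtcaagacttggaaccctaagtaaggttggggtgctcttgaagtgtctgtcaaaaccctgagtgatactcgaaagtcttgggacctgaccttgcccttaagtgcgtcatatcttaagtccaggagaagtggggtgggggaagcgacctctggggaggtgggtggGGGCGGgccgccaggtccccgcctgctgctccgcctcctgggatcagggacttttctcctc
Col17a1: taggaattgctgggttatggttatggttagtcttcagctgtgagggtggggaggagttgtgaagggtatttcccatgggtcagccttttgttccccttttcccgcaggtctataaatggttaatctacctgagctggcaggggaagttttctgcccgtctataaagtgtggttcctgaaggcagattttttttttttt
Col5a1: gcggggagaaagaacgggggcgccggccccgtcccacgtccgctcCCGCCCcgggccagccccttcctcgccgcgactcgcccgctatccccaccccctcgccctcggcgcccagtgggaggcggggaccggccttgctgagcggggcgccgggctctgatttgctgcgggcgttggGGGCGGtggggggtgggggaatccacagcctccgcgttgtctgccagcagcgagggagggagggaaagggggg
Col3a1: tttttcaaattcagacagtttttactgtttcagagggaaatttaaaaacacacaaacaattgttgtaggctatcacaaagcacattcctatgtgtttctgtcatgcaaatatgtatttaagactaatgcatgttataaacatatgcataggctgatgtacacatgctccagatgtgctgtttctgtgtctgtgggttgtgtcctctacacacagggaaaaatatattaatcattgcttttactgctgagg
Col7a1 held 1 GC box, Col5a1 held 2, and Col17a1 and Col3a1 held 0 in these windows. Of the 40 collagen genes, 32 had an entry in the promoter table, with 34 promoters between them, and 20 of those genes had the box within 250 bases upstream in at least 1 promoter. In all, 21 of the 34 collagen promoters held it, while 10756 of the 32851 promoters in the table (32.7%) did. A match here describes letters and does not show that any factor binds.

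Collagen transcripts made up 1.90% of all counts in Sp6 cKO (1.89 to 1.91%), 1.89% in Sp8 cKO (1.88 to 1.90%), 1.62% in Sp6+Sp8 cKO (1.61 to 1.62%) and 1.96% in wildtype (1.95 to 1.96%). Col1a1, Col1a2 and Col3a1 together supplied 73.2% of these counts in Sp6 cKO, 71.7% in Sp8 cKO, 70.6% in Sp6+Sp8 cKO and 72.3% in wildtype. The Sp6+Sp8 cKO share lay outside the counting intervals of the other 3 libraries, on the low side. Scaled by transcript length, as CPM per kilobase, fibrillar collagens held between 76.5% and 78.7% of the collagen signal in every library. The beaded filament class came next with 7.76% in Sp6 cKO, 8.74% in Sp8 cKO, 8.73% in Sp6+Sp8 cKO and 7.71% in wildtype, close to the transmembrane class with 6.95%, 7.50%, 7.66% and 8.07% in the same order. The basement membrane class held between 3.45% and 3.81% and the FACIT class between 2.42% and 3.04%. The order of these 5 classes was the same in the Sp6, Sp8 and Sp6+Sp8 cKO libraries, and in wildtype the transmembrane class stood above the beaded filament class.

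**Figure D1:**
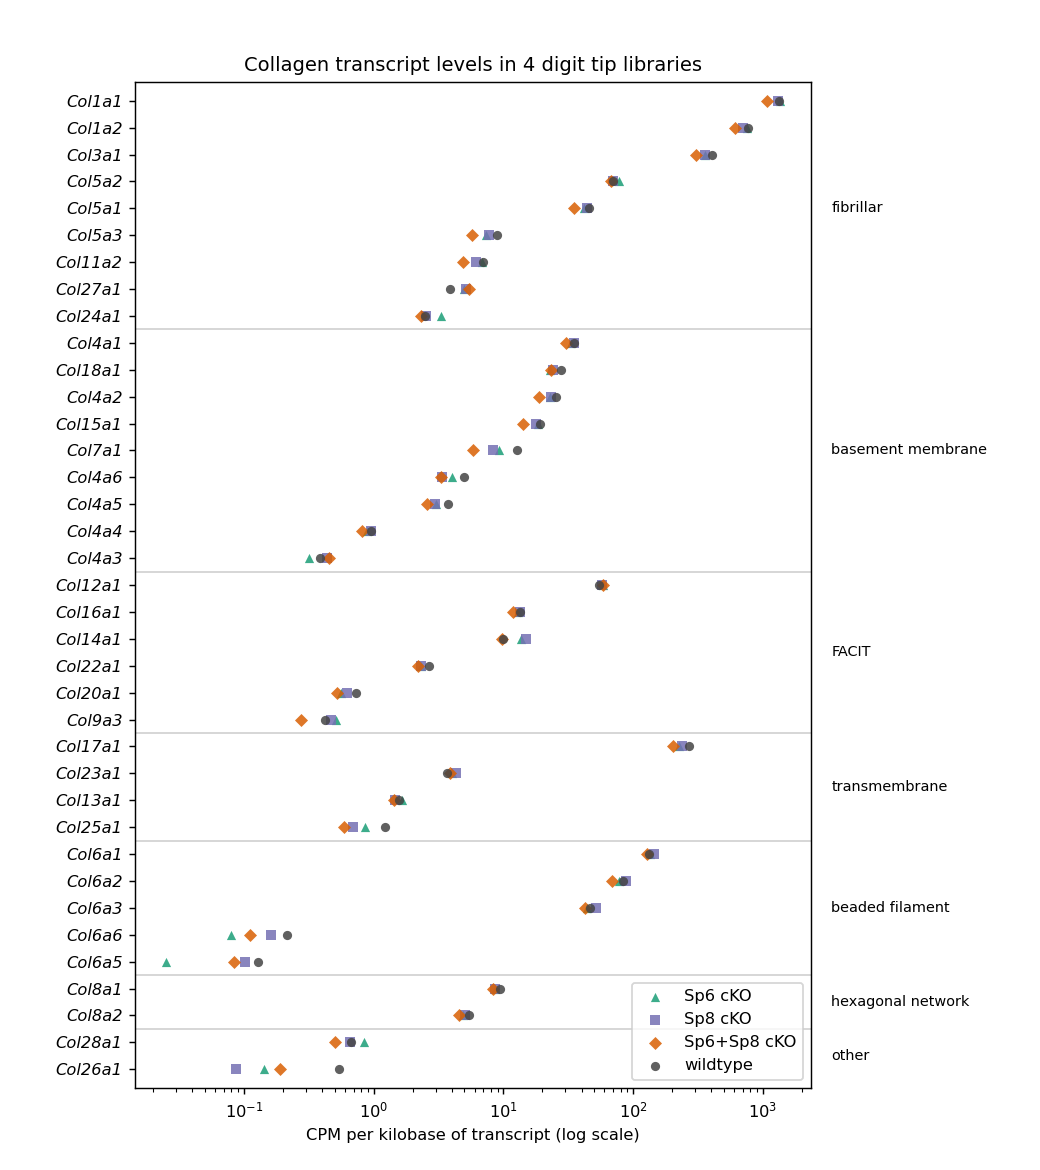
Levels of the 37 collagen genes at or above 1 CPM somewhere, in CPM per kilobase of transcript on a log axis, grouped by class, with 1 symbol per library. The symbols of the 4 libraries lie close together for most genes, and Col7a1, Col6a5, Col6a6 and Col26a1 show the widest gaps.

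Differences of 2-fold or more were few among collagen genes, as they were among all genes. A gene was counted as past the size rule when its log2 CPM ratio was at least 1 in either direction, its CPM was at least 1 in either library of the pair, and the counting interval of its ratio excluded 1. Against wildtype, 3 collagen genes passed this rule in Sp6 cKO, all lower (Col26a1, Col6a5 and Col6a6), beside 4.4% of all genes in either direction and 2.16% of all genes lower. In Sp8 cKO 1 collagen gene passed (Col26a1), lower, beside 3.82% of all genes in either direction and 1.55% lower. In Sp6+Sp8 cKO 2 passed (Col7a1 and Col26a1), both lower, beside 5.79% and 2.95% of all genes. All 37 genes were tested in each of these comparisons, and of the genes that passed, only Col7a1 stood above a CPM of 2 in any library. Within batch 1 none passed: 0 of 34 collagen genes for Sp6+Sp8 cKO against Sp6 cKO (3.97% of all genes in either direction, 2.08% lower), 0 of 35 for Sp6+Sp8 cKO against Sp8 cKO (4.68% and 2.8%) and 0 of 35 for Sp6 cKO against Sp8 cKO (3.1% and 1.75%).

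Most collagen genes were slightly lower in Sp6+Sp8 cKO than in the other 3 libraries. Among the 27 genes that reached a CPM of 10 somewhere, 23 had their lowest level of the 4 libraries in Sp6+Sp8 cKO, a position taken by that library for 35.1% of the 10670 genes of the table at that level. Wildtype held the highest level for 16 of the 27, against 28.1% of those genes. Relative to wildtype, 24 of the 27 were lower in Sp6+Sp8 cKO (51.9% of all genes tested had a ratio below 0), with a median log2 ratio of -0.27. The same count was 19 in Sp6 cKO (51.5%) with a median of -0.07, and 17 in Sp8 cKO (51.7%) with a median of -0.09. These 3 comparisons share the wildtype library. Within batch 1, where wildtype plays no part, 25 of the 27 were lower in the Sp6+Sp8 than in the Sp6 cKO library (51.5% of all genes) with a median of -0.20, and 25 of 27 were lower than in Sp8 cKO (52.5%) with a median of -0.22. Sp6 cKO and Sp8 cKO lay close to each other, with 15 of 27 lower in Sp6 cKO (50.3%) and a median of -0.01. Medians over all genes at that level lay between -0.02 and 0.00 in these 6 comparisons.

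The differences were small for single genes. The highest library stood less than 1.5-fold above the lowest for 24 of the 27 genes, and the median of that ratio was 1.29, against 1.22 over all genes at that level. The exceptions were Col7a1 at 2.15-fold, Col5a3 at 1.56-fold and Col14a1 at 1.52-fold. Most of these collagen transcripts are long. Over all genes that reached a CPM of 10, those of 4000 to 8000 bases, which include 21 of the 27, had a median log2 ratio of 0.01 in Sp6+Sp8 cKO against wildtype, and genes of 8000 bases or more, which include 5, had a median of 0.04.

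**Figure D2:**
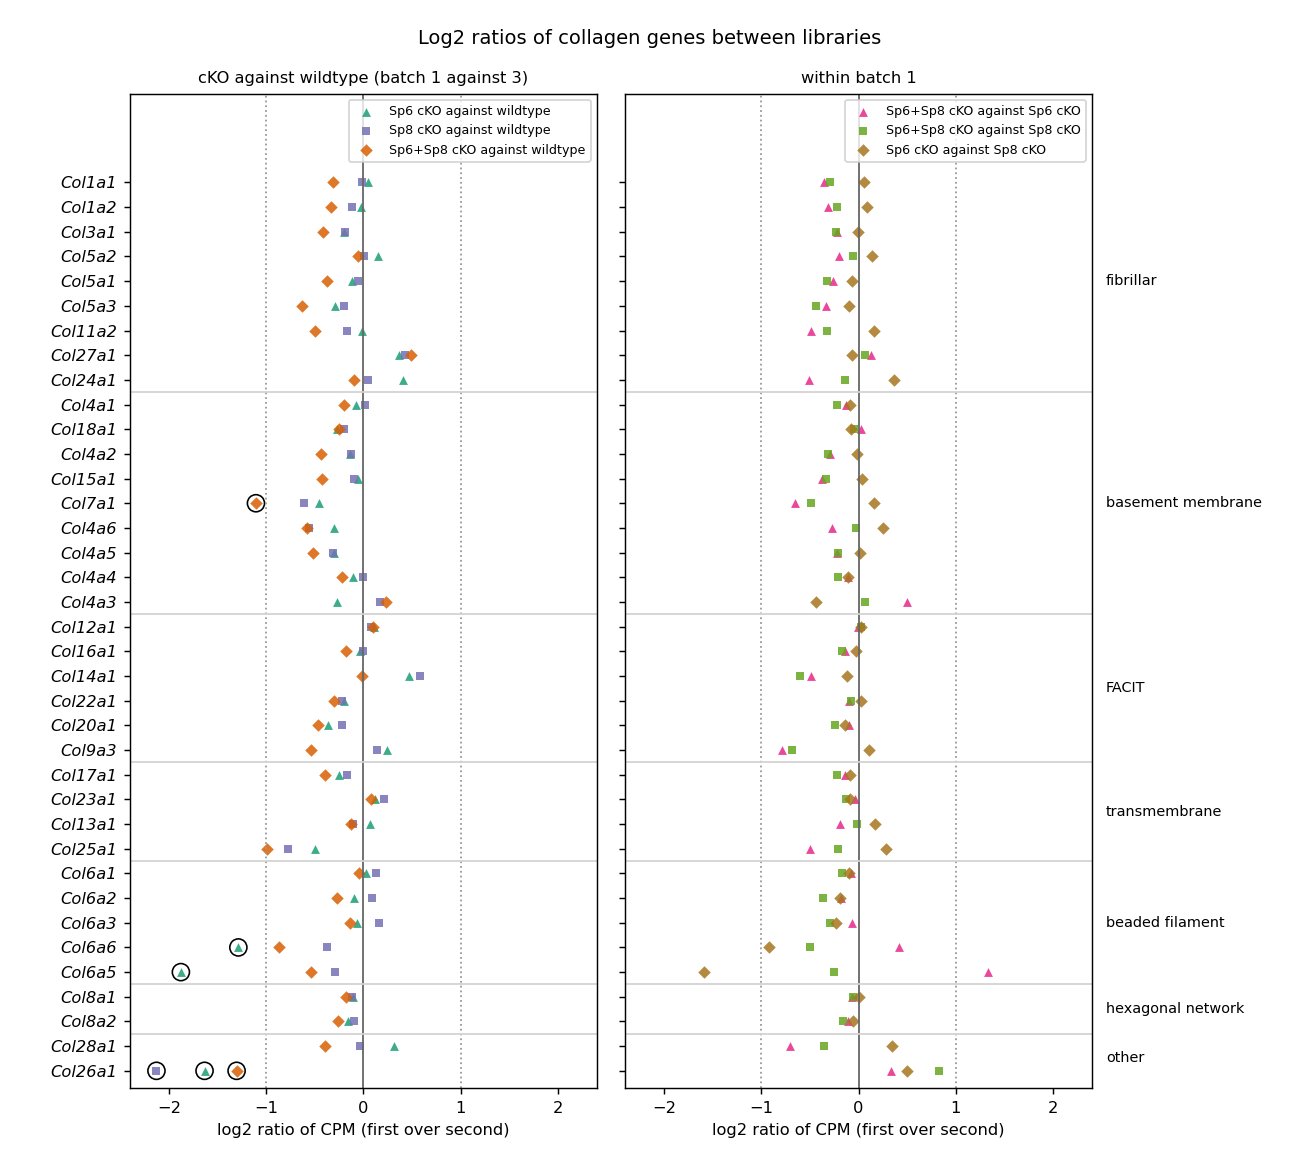
Log2 CPM ratios of the 37 collagen genes, for each cKO library against wildtype on the left and among the 3 cKO libraries on the right. Dotted lines mark 2-fold and rings mark genes past the size rule; the Sp6+Sp8 cKO symbols lie mostly left of 0, with Col7a1 the only ring at a CPM above 10.

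Fibrillar collagens carried most of the signal. Col1a1, the major chain of type I collagen of bone, tendon and dermis, stood at 8095 CPM in Sp6 cKO, 7774 CPM in Sp8 cKO, 6332 CPM in Sp6+Sp8 cKO and 7860 CPM in wildtype. Its partner chain Col1a2 stood at 4002, 3759 and 3229 CPM in those cKO libraries and at 4082 CPM in wildtype. Col3a1, the fibrillar collagen of dermis, vessels and early wounds, stood at 1973, 1985 and 1693 CPM in the cKO libraries and at 2266 CPM in wildtype. All 3 genes were lowest in Sp6+Sp8 cKO, while Col1a1 was highest in Sp6 cKO and Col1a2 and Col3a1 were highest in wildtype. Col3a1 shares 141 exon bases with Gm47302 on the same strand, so a small part of its counts is uncertain. Against wildtype the Sp6+Sp8 cKO log2 ratios were -0.31 for Col1a1, -0.34 for Col1a2 and -0.42 for Col3a1. Col1a1 in Sp6+Sp8 cKO was also lower than in the other batch 1 libraries, by log2 ratios of -0.35 against Sp6 cKO and -0.30 against Sp8 cKO.

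The type V chains, which join type I fibrils and set their width, differed between libraries by unequal amounts. Col5a1 stood at 352, 368 and 294 CPM in the Sp6, Sp8 and Sp6+Sp8 cKO libraries and at 382 CPM in wildtype. Col5a2 stood at 513, 464 and 447 CPM in the same cKO order and at 464 CPM in wildtype, so its Sp6+Sp8 cKO level lay within a log2 ratio of -0.05 of wildtype. Col11a2 and Col24a1 stood between 16.4 and 37.3 CPM. The fibrillar genes ranged between log2 ratios of -0.64 and 0.49 in Sp6+Sp8 cKO against wildtype. The ends of that range, singled out after their values were seen, were Col5a3, at 35.2 CPM in Sp6+Sp8 cKO and 54.8 CPM in wildtype, and Col27a1. Col27a1 was the only gene of the 27 with its highest level in Sp6+Sp8 cKO, at 41.1 CPM, with 37.7 CPM in Sp6 cKO, 39.4 CPM in Sp8 cKO and 29.3 CPM in wildtype. None of the 9 fibrillar genes passed the size rule in any of the 6 comparisons.

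Col7a1, the chain of the anchoring fibrils, showed the largest difference of any collagen gene above a CPM of 10. It lies on chromosome 9 at 108953586 to 108984875 (GRCm38, ENSMUSG00000025650) and stood at 85.4 CPM in Sp6 cKO, 76.4 CPM in Sp8 cKO, 54.3 CPM in Sp6+Sp8 cKO and 117 CPM in wildtype, from 1101, 962, 836 and 2545 counts. Its levels were lower in each cKO library than in wildtype and lowest in Sp6+Sp8 cKO. Against wildtype it was 1.37-fold lower in Sp6 cKO (1.28 to 1.47), 1.53-fold lower in Sp8 cKO (1.42 to 1.65) and 2.15-fold lower in Sp6+Sp8 cKO (1.99 to 2.33), and only the last passed the size rule. Within batch 1 it was 1.57-fold lower in the Sp6+Sp8 than in the Sp6 cKO library (1.43 to 1.72) and 1.41-fold lower than in Sp8 cKO (1.28 to 1.54), below 2-fold in both. Sp6 cKO exceeded Sp8 cKO by 1.12-fold (1.02 to 1.22). The microRNA gene Mir711 overlaps its exons by 36 bases on the same strand.

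Col7a1 is made largely by keratinocytes and dermal fibroblasts, and markers of both were read beside it. The 5 basal keratinocyte markers (Krt5, Krt14, Krt15, Trp63 and Itgb4), all above a CPM of 1, summed to 4474 CPM in Sp6 cKO, 4495 CPM in Sp8 cKO, 4635 CPM in Sp6+Sp8 cKO and 4827 CPM in wildtype. In Sp6+Sp8 cKO against wildtype the log2 ratios were 0.04 for Krt5, -0.08 for Krt14, -0.05 for Trp63, -0.38 for Itgb4 and -0.53 for Krt15. Krt5 and Krt14 supplied most of the sum, at 2057 and 1701 CPM in Sp6+Sp8 cKO. Krt15 stood at 107, 141 and 96.8 CPM in the Sp6, Sp8 and Sp6+Sp8 cKO libraries and at 139.7 CPM in wildtype, so it was lowest where Col7a1 was lowest. Itgb4 was lowest there too, but only just below Sp6 cKO. Its log2 ratios against wildtype were -0.35, -0.24 and -0.38 in the same cKO order. The 7 fibroblast markers summed to 367, 385 and 303 CPM in the cKO libraries and to 330 CPM in wildtype. The fibroblast sum was lowest in Sp6+Sp8 cKO too, but its members differed in their ratios to wildtype. Their log2 ratios there against wildtype were -0.75 for Clec3b, -0.57 for Dpt, -0.11 for Pi16 and -0.06 for Pdgfra. For Dpp4, Cd34 and Twist2 they were -0.05, 0.01 and 0.06. Within batch 1, all 7 fibroblast markers were lower in Sp6+Sp8 cKO, with medians of -0.26 against Sp6 cKO and -0.38 against Sp8 cKO. Of the 5 basal keratinocyte markers, 3 were lower in each of those comparisons, with medians of 0.00 and -0.01. The part of either cell type in the Col7a1 value was not tested.

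Col17a1, Lama3 and Lamb3, also of the epidermal anchoring zone, were lower than in wildtype in each cKO library without passing the size rule. Col17a1, the transmembrane collagen of hemidesmosomes, on chromosome 19 at 47646344 to 47692094 (ENSMUSG00000025064), stood at 1227 CPM in Sp6 cKO, 1302 CPM in Sp8 cKO, 1118 CPM in Sp6+Sp8 cKO and 1466 CPM in wildtype. Its log2 ratios against wildtype were -0.26, -0.17 and -0.39, and within batch 1 Sp6+Sp8 cKO differed from Sp6 cKO by -0.14 and from Sp8 cKO by -0.22. Per kilobase it was the highest of the collagen genes outside the fibrillar class, at 204 to 268 CPM per kilobase. Lama3 and Lamb3 encode laminin chains of the epidermal basement membrane. Lama3 had log2 ratios of -0.51, -0.49 and -0.45 in the Sp6, Sp8 and Sp6+Sp8 cKO libraries, and Lamb3 of -0.44, -0.36 and -0.64, beside -0.45, -0.62 and -1.11 for Col7a1. In Sp6 cKO the Lama3 and Lamb3 differences were thus about the size of that of Col7a1, and in the other cKO libraries they were smaller. Of the 5 hemidesmosome partner genes, 0 passed the size rule in any comparison, beside 3.1% to 5.79% of all genes, so 0 in so short a list lies near that share. The log2 ratios of these 5 genes against wildtype ranged from -0.35 to 0.15 in Sp6 cKO, -0.24 to 0.24 in Sp8 cKO and -0.38 to 0.10 in Sp6+Sp8 cKO.

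**Figure D3:**
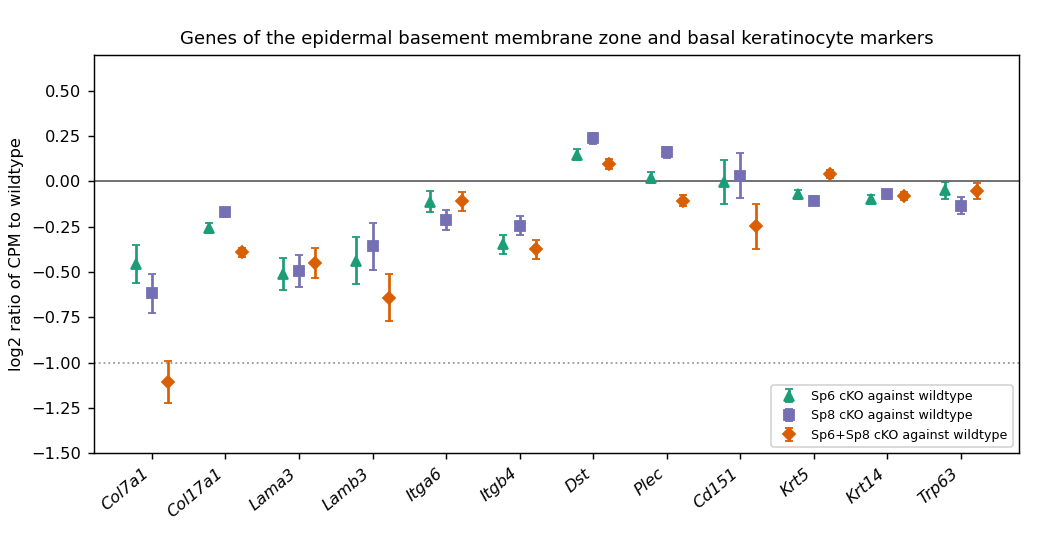
Log2 CPM ratios to wildtype for Col7a1, Col17a1, Lama3, Lamb3, hemidesmosome genes and the basal keratinocyte markers Krt5, Krt14 and Trp63 in the 3 cKO libraries. Krt15, the lowest of the basal keratinocyte markers in Sp6+Sp8 cKO at -0.53, is not drawn. Bars are exact 95% counting intervals and the dotted line marks 2-fold lower. Col7a1 in Sp6+Sp8 cKO, at -1.11, is the only symbol below the dotted line.

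Type IV collagens form the basement membrane sheet, as a ubiquitous pair (Col4a1 and Col4a2) and tissue-restricted chains. Col4a1 stood at 218, 232 and 199 CPM in the Sp6, Sp8 and Sp6+Sp8 cKO libraries and at 229 CPM in wildtype, and Col4a2 at 148, 149 and 120 CPM in the same order and at 163 CPM in wildtype. Of the X-linked pair, Col4a5 stood at 19.6, 19.5 and 16.8 CPM in the cKO libraries and at 24.2 CPM in wildtype, and Col4a6 at 26.5, 22.2 and 21.9 CPM and at 32.8 CPM. Both X-linked chains were highest in wildtype and lowest in Sp6+Sp8 cKO. Col4a3 and Col4a4 were low, at 2.71, 3.73 and 3.90 CPM with 3.31 CPM in wildtype, and at 8.92, 9.61 and 8.25 CPM with 9.61 CPM in wildtype. Col4a3 overlaps the exons of C430014B12Rik on the opposite strand by 563 bases, and whether the counting kept the strands apart is not stated. Col18a1, the basement membrane proteoglycan core that gives endostatin, stood at 110, 116 and 112 CPM in the cKO libraries and at 133 CPM in wildtype. Col15a1, its close relative, named after its values were seen, stood at 94.9, 92.6 and 73.2 CPM in the cKO libraries and at 98.8 CPM in wildtype.

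All 9 basement membrane collagens had log2 ratios below 0 in Sp6 cKO against wildtype, 7 did in Sp8 cKO and 8 did in Sp6+Sp8 cKO, with medians of -0.27, -0.12 and -0.43. Their non-collagen partners (laminins, nidogens, perlecan and agrin) showed ratios below 0 for 12 of 14 genes in Sp6 cKO, 9 of 14 in Sp8 cKO and 14 of 14 in Sp6+Sp8 cKO, with medians of -0.08, -0.07 and -0.30 and no gene past the size rule. Of all genes, 4.4%, 3.82% and 5.79% passed it in those comparisons. Within batch 1, 11 of those 14 partners were lower in the Sp6+Sp8 than in the Sp6 cKO library, and 11 of 14 lower than in Sp8 cKO, at medians of -0.18 and -0.17. Endothelial markers, whose cells also lay down basement membrane, summed to 208 CPM in Sp6 cKO, 214 CPM in Sp8 cKO, 163 CPM in Sp6+Sp8 cKO and 201 CPM in wildtype. All 5 endothelial markers were lower in Sp6+Sp8 cKO than in wildtype, and their part in the basement membrane values was not tested.

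Beaded filament collagen VI, laid down by fibroblasts and many mesenchymal cells, was highest in Sp8 cKO for its main chains. Col6a1 stood at 554 CPM in Sp6 cKO, 591 CPM in Sp8 cKO, 527 CPM in Sp6+Sp8 cKO and 542 CPM in wildtype. Col6a2 stood at 307, 349 and 271 CPM in the cKO libraries and at 327 CPM in wildtype, and Col6a3 at 398, 467 and 380 CPM and at 418 CPM. The 3 chains were lowest in Sp6+Sp8 cKO. Col6a5 and Col6a6, chains that can take the place of the Col6a3 product, were near the detection limit. Col6a5 had 3 counts in Sp6 cKO, 12 in Sp8 cKO, 12 in Sp6+Sp8 cKO and 26 in wildtype, or 0.23, 0.95, 0.78 and 1.20 CPM. It was 5.14-fold lower in Sp6 cKO than in wildtype, with an interval of 1.58 to 26.5. Col6a6 had 9, 18 and 15 counts in the cKO libraries and 41 in wildtype, or 0.70, 1.43 and 0.97 CPM and 1.89 CPM, and was 2.70-fold lower in Sp6 cKO (1.29 to 6.32). These wide intervals leave the size of both differences poorly set. Col6a4 stayed below a CPM of 1 in every library.

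Among FACIT collagens, Col12a1, which lies on type I fibrils of tendon, ligament and dermis, was the steadiest of the 27 genes. It stood at 676, 664 and 675 CPM in the Sp6, Sp8 and Sp6+Sp8 cKO libraries and at 629 CPM in wildtype, a highest-to-lowest ratio of 1.08. Col16a1 stood at 67.9, 69.4 and 61.6 CPM in the cKO libraries and at 69.8 CPM in wildtype. Col14a1, named after its values were seen, is another fibril-associated collagen of tendon and dermis and stood at 77.7, 84.2 and 55.4 CPM in the cKO libraries and at 56.2 CPM in wildtype. Sp6+Sp8 cKO and wildtype were close for Col14a1, with a log2 ratio of -0.02, while Sp6 cKO and Sp8 cKO stood above wildtype by 0.47 and 0.58. The tendon markers Tnmd, Scx, Mkx, Fmod and Thbs4, all above a CPM of 1, summed to 490 CPM in Sp6 cKO, 518 CPM in Sp8 cKO, 309 CPM in Sp6+Sp8 cKO and 492 CPM in wildtype. Their part in the FACIT and type I values was not tested. Col20a1, Col22a1 and Col9a3 ranged from 0.84 to 23.7 CPM, and Col19a1 and Col9a2 stayed below a CPM of 1. Col20a1 shares 79 exon bases with BX649560.1 on the same strand and Col9a3 shares 234 with Tcfl5 on the opposite strand, which makes their low counts uncertain.

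Of the remaining transmembrane collagens, Col23a1 stood at 22.7, 24.2 and 22.1 CPM in the Sp6, Sp8 and Sp6+Sp8 cKO libraries and at 20.9 CPM in wildtype, and Col13a1 and Col25a1 ranged from 1.56 to 5.19 CPM. Type VIII collagen, a short-chain network collagen of vessels and cornea, was steady. Col8a1 stood at 44.2, 43.9 and 42.2 CPM in the cKO libraries and at 47.7 CPM in wildtype, and Col8a2 at 21.1, 22.0 and 19.6 CPM and at 23.5 CPM. Col26a1 and Col28a1 belong to no main class. Col28a1 stood at 3.57, 2.78 and 2.14 CPM in the cKO libraries and at 2.85 CPM in wildtype. Col26a1 was the only gene past the size rule in all 3 comparisons with wildtype, which share the wildtype library, with 5, 3 and 8 counts in the cKO libraries and 32 in wildtype, or 0.39, 0.24 and 0.52 CPM and 1.47 CPM. It was 3.80-fold lower in Sp6 cKO (1.47 to 12.5), 6.18-fold lower in Sp8 cKO (1.93 to 31.5) and 2.83-fold lower in Sp6+Sp8 cKO (1.28 to 7.11). Col26a1 reached a CPM of 1 in wildtype only.

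Ratios of chains within a library do not depend on library scaling. Col1a1 outnumbered Col1a2 by 2.02 (2.00 to 2.04) in Sp6 cKO, 2.07 (2.05 to 2.09) in Sp8 cKO, 1.96 (1.94 to 1.98) in Sp6+Sp8 cKO and 1.93 (1.91 to 1.94) in wildtype as counts. Scaled per kilobase the ratios were 1.82, 1.87, 1.77 and 1.74. Type I collagen is known as a trimer with more of the Col1a1 chain than of the Col1a2 chain, and the transcript ratios varied little. Col3a1 against Col1a1 gave count ratios of 0.244 in Sp6 cKO, 0.255 in Sp8 cKO, 0.267 in Sp6+Sp8 cKO and 0.288 in wildtype, with intervals that do not overlap. Col5a1 against Col5a2 gave 0.687 (0.661 to 0.713) in Sp6 cKO, 0.793 (0.763 to 0.824) in Sp8 cKO, 0.659 (0.634 to 0.684) in Sp6+Sp8 cKO and 0.823 (0.800 to 0.848) in wildtype, so Sp6 cKO and Sp6+Sp8 cKO lay below Sp8 cKO and wildtype.

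Col4a1 and Col4a2, which start head to head with 22 shared exon bases on opposite strands, gave count ratios of 1.47 (1.39 to 1.56) in Sp6 cKO, 1.56 (1.47 to 1.65) in Sp8 cKO, 1.66 (1.56 to 1.76) in Sp6+Sp8 cKO and 1.41 (1.35 to 1.47) in wildtype. The Col6a1 to Col6a2 ratio was 1.81 (1.74 to 1.88), 1.69 (1.63 to 1.76) and 1.94 (1.87 to 2.01) in the same cKO order and 1.66 (1.61 to 1.71) in wildtype. For both pairs the second chain was relatively lowest in Sp6+Sp8 cKO. Col6a3 against Col6a1 gave 0.719, 0.790 and 0.722 in the cKO libraries and 0.771 in wildtype. The remaining pairs had intervals that overlapped in all 4 libraries: Col4a3 against Col4a4 gave 0.304, 0.388 and 0.472 and in wildtype 0.344, Col4a5 against Col4a6 gave 0.740, 0.875 and 0.769 and in wildtype 0.738, and Col8a1 against Col8a2 gave 2.10, 2.00 and 2.15 and in wildtype 2.03. Counting error alone is covered by these intervals, so how far such ratios vary between animals is not known here.

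**Figure D4:**
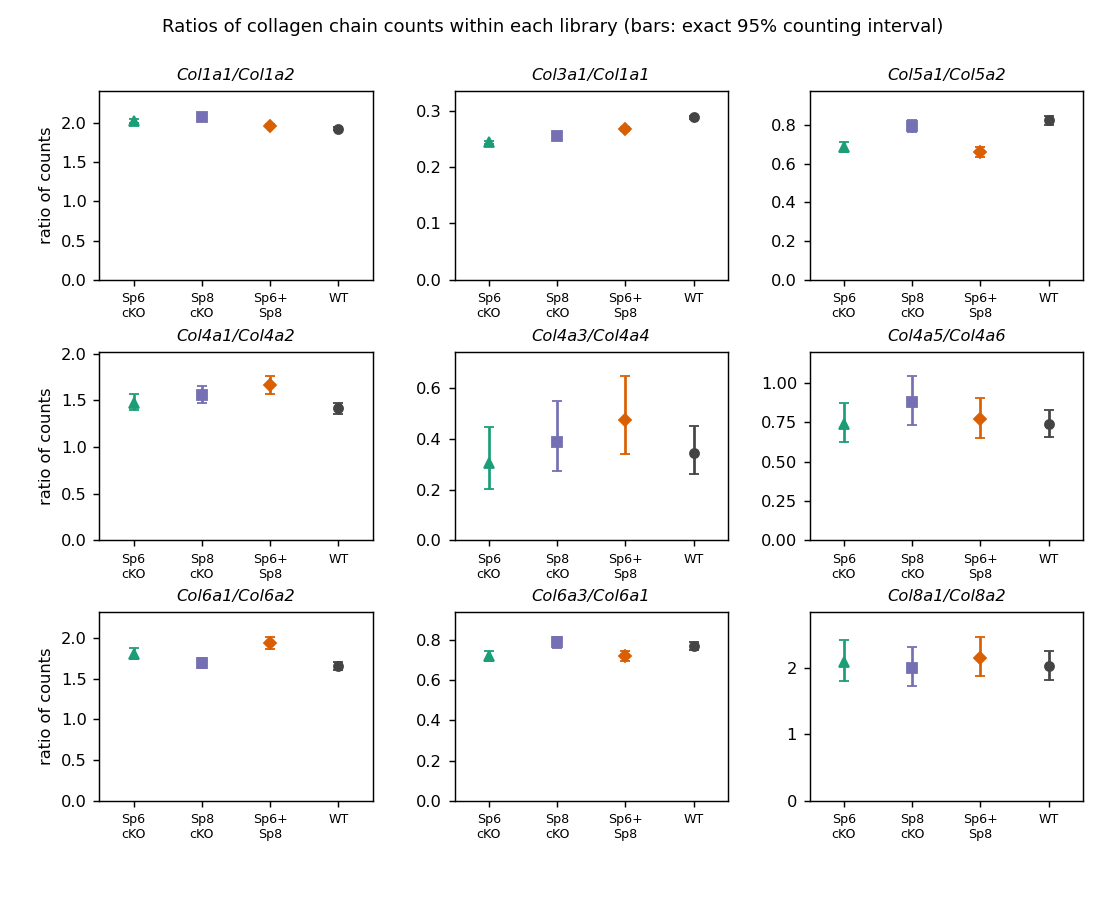
Ratios of counts between collagen chains within each library, for 9 chain pairs, with exact 95% counting intervals. Axes start at 0; the intervals of the 4 libraries overlap for Col4a3/Col4a4, Col4a5/Col4a6 and Col8a1/Col8a2.

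Genes that fold, process, cross-link, bind or sense collagen were read from lists. Of all genes, 3.1% to 5.79% passed the size rule in a comparison, so few or no passing genes in lists this short lie near that share. Of 21 folding and modification genes, such as the prolyl hydroxylases and the collagen chaperone Serpinh1, 0 passed the size rule in any of the 6 comparisons. Their median log2 ratio in Sp6+Sp8 cKO against wildtype was -0.04, against -0.34 for the fibrillar collagens, while within batch 1 it was -0.16 against each other cKO library. Serpinh1 itself stood at 204, 208 and 179 CPM in the Sp6, Sp8 and Sp6+Sp8 cKO libraries and at 182 CPM in wildtype. Of the 7 measured propeptide-processing genes and the 5 cross-linking genes, 0 passed in any comparison, with medians of -0.23 and -0.25 in Sp6+Sp8 cKO against wildtype. Among the 9 receptor genes only Lair1, an inhibitory collagen receptor of leukocytes, passed, at 57 counts in Sp8 cKO and 39 in wildtype (4.52 and 1.79 CPM), a log2 ratio of 1.28, with macrophage markers summing to 220 and 162 CPM in those libraries.

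The collagen-binding small proteoglycans were also lower in Sp6+Sp8 cKO. All 9 were lower in the Sp6+Sp8 than in the Sp6 cKO library, with a median of -0.45, and 8 of 9 were lower than in Sp8 cKO, with a median of -0.48; against wildtype the median was -0.29. Kera, encoding keratocan, was the only one past the size rule, in both comparisons of Sp6+Sp8 cKO within batch 1, where 3.97% and 4.68% of all genes passed. It stood at 7.86 CPM in Sp6+Sp8 cKO against 19.4 CPM in Sp6 cKO and 17.3 CPM in Sp8 cKO, and 14.9 CPM in wildtype. Dcn, encoding the fibril-spacing proteoglycan decorin, stood at 774, 770 and 520 CPM in the Sp6, Sp8 and Sp6+Sp8 cKO libraries and at 722 CPM in wildtype. Of the cartilage collagens left out, Col2a1 was 2.65-fold lower in Sp6+Sp8 cKO than in wildtype (1.68 to 4.35), with 1.56 and 4.14 CPM. Within batch 1, Col2a1 was also lower past the size rule in Sp6+Sp8 cKO, by log2 ratios of -1.57 against Sp6 cKO and -1.04 against Sp8 cKO. Col11a1 stood at 143, 131 and 133 CPM in the cKO libraries and at 122 CPM in wildtype. Of 6 chondrocyte markers, 5 were found by symbol (Cnmd was not), 3 reached a CPM of 1 and Matn1 had 0 counts throughout. Those found summed to 237 CPM in Sp6+Sp8 cKO and to 236 CPM in wildtype.

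Markers of other cells were read for the whole tip. Osteoblast markers summed to 538, 562 and 483 CPM in the Sp6, Sp8 and Sp6+Sp8 cKO libraries and to 453 CPM in wildtype. Within that list Ibsp was higher in Sp6+Sp8 cKO than in wildtype (151 and 75.3 CPM). Bglap (11.2 and 33.4 CPM) and Bglap2 (5.33 and 11.5 CPM) were lower. In that comparison 5 of the 7 markers had log2 ratios below 0, with a median of -0.37. Osteoclast markers summed to 211, 331 and 315 CPM in the cKO libraries and to 116 CPM in wildtype, so the bone-resorbing cell markers were higher in each cKO library. Mural cell markers summed to between 701 and 809 CPM, Schwann cell markers to between 109 and 129 CPM and adipocyte markers to between 5.78 and 7.06 CPM. None of 4 skeletal muscle markers reached a CPM of 1, and Myh4 had 0 counts in every library. The part of these cell types in the collagen values was not tested.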

How the data were processed

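Per the labels' protocols, poly-A RNA of 4 mouse digit tip libraries (1 per genotype) was converted to stranded (dUTP) cDNA and sequenced as paired-end reads of 150 bp on a DNBSEQ-T7 instrument. Tools listed in the submitters' processing notes are Salmon, STAR, featureCounts, deepTools, edgeR and Trim Galore 0.6.4, with build GRCm38; their roles, the strand setting and the annotation release are not stated there. The authors deposited estimated counts per gene, not scaled for depth. Between 84.6% and 87.1% of the values per library were whole numbers, with totals from 12588511 to 21834883. Left out was 1 column whose name fits none of the samples.

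Estimated counts were rounded and scaled by TMM (edgeR 4.0.16, R 4.3.3) across all 4 libraries; a prior count of 2 entered the log2 CPM ratios. Gene positions and transcript lengths came from GENCODE M21 (GRCm38), where 98.8% of identifiers and all 40 collagen genes were found; the longest principal transcript gave the length for CPM per kilobase. Where several identifiers carried 1 symbol, the one with the highest mean CPM was used. Promoters came from RefSeq (GRCm38.p6), and the Col17a1 stretch was trimmed to bases upstream of the annotated gene. Ratio intervals are exact Clopper-Pearson 95% intervals conditional on the sum of both counts and cover counting error only; PCR copies cannot be told from separate molecules. The procedure was tested on simulated counts with known fold changes in genes at a CPM of at least 10. Those counts held counting error only, so the test says nothing about variation between animals or batches.

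With 1 library per group no difference was tested. The 6 comparisons were 3 against wildtype and 3 within batch 1. Values in every library are given for genes past the size rule, for the 2 genes of each class highest per kilobase and for the chain pairs, and other genes by range unless named as chosen after their values were seen. From each partner list, up to 4 genes past the rule were to be named per comparison; Serpinh1, Dcn, Col15a1, Lama3, Lamb3 and the marker genes named were chosen after their values were seen. The values of 1 gene among the basement membrane partners are not reported here. The collagen genes, their classes, the lists and the comparisons were chosen with earlier results of these data known. Alternatives were scaling by DESeq2 1.42.0, by library totals with and without collagen counts, other count minima, a prior count of 0.5 and a 1.5-fold threshold.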

Additional observations from a re-analysis of the deposited data

How the results depend on the processing

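No paired analysis was possible because each group has 1 library. None of the 6 single-gene ratios past the size rule reversed direction under any setting. They had been picked for their size, and the count minima and the 1.5-fold threshold do not change a ratio. Their direction was thus nearly fixed in advance. Directions of the other ratios were not followed gene by gene, and those near 0 can change sign with the scaling. With a CPM minimum of 5 in place of 1, fewer collagen genes passed the size rule against wildtype. The numbers were 0 in Sp6 cKO (2.03% of all genes), 0 in Sp8 cKO (1.52%) and 1 (Col7a1) in Sp6+Sp8 cKO (2.98%). Col26a1, Col6a5 and Col6a6 no longer entered. With 1.5-fold in place of 2-fold, 3 genes in Sp8 cKO (8.16% of all genes) and 5 in Sp6+Sp8 cKO (13.8%) passed against wildtype, and within batch 1, 2 passed for Sp6+Sp8 cKO against Sp6 cKO (9.53%) and 1 against Sp8 cKO (10.9%), all lower. Without a count minimum, 1 gene (Col6a5, lower) passed for Sp6 cKO against Sp8 cKO (2.86% of all genes). With a prior count of 0.5, 3 genes in place of 2 passed in Sp6+Sp8 cKO against wildtype (6.27% of all genes). The median log2 ratio of the 37 genes in Sp6+Sp8 cKO against wildtype was -0.312 and became -0.298 with DESeq2 size factors, -0.283 with library totals, -0.288 with totals without collagens, -0.325 without a minimum and -0.261 with a CPM minimum of 5. In settings added after seeing the data, Sp6+Sp8 cKO was lowest for 21 to 23 of the 27 genes under the other scalings. The share among all genes at that level was 30.1% to 33.1% there. Sp6+Sp8 cKO was lowest for 25 of 29 at a CPM minimum of 5 (34.4% of all genes) and for 29 of 37 at 1 (32.8%). Counts of 3 to 41 limit Col6a5, Col6a6 and Col26a1.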
